A study of Mus musculus with 6 samples.

Results

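Trp53, its paralogues Trp63 and Trp73, and the regulators Mdm2, Mdm4, Usp7, Ppm1d and Cdkn2a were examined in heads of E9.0 mouse embryos, wild type (WT) or heterozygous for Snrpb in the neural crest and developing brain (Snrpbncc+/-, Het). These 8 genes were chosen by symbol from the 24421 genes of the count table, for what their proteins do. Earlier results of these data were known when they were chosen. All 8 had a row, and 6 passed the filter on low counts and were tested among 15584 genes. In each genotype 3 libraries were sequenced, each from 2 pooled heads of similar somite number, with no treatment in either group. Per the study's methods, mutants carried 1 Snrpb allele whose exons 2 to 3 were flanked by loxP sites, and the Wnt1-Cre2 transgene that deletes them, so surface ectoderm, mesoderm, endothelium and blood in the same heads kept both alleles. Whether the WT heads carried the transgene is not given in the sources used here. The labels name both CD1 and C57BL/6 as the background.

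The p53 protein is a transcription factor that is made continuously and normally destroyed quickly. Mdm2, a ubiquitin ligase, marks it for the proteasome, and Mdm4, a relative of Mdm2 with little ligase activity of its own, blocks its transactivation domain and pairs with Mdm2. When cells are stressed, phosphorylation of p53 and Mdm proteins or binding of ribosomal proteins and Arf to Mdm2 frees p53, so that its activity is set largely at the protein level and can change without a change in Trp53 mRNA. Mdm2 and Ppm1d are themselves p53 targets and close a negative feedback loop. Loss of Mdm2 or Mdm4 is lethal to mouse embryos unless p53 is removed too. The counts used here measure RNA summed over all exons of a gene, and they neither resolve exon use nor report p53 protein.

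Depth ran from 36378803 to 74909774 counts a library. The gene whose deletion defines the groups, Snrpb, was measured at 429.9, 438.2 and 414.2 CPM (counts scaled to library size) in WT and 436.5, 412.4 and 430.3 CPM in Het. The groups overlapped, and the log2 fold change, Het minus WT throughout, was -0.004 (SE 0.039; edgeR adjusted p = 0.990), so the gene total did not check the genotype labels. Only some cells of these heads carried the deletion, and in bulk RNA fewer cells of a type and less RNA per cell cannot be told apart. The library WT1 stood apart from the others in tissue markers, with the lowest summed surface ectoderm markers (514.9 CPM, against 652.7 to 665.1 CPM in the other 5 libraries) and the highest yolk sac markers (35.9 CPM, against 8.09 to 10.5 CPM). Summed Y-linked transcripts ranged from 62.8 to 120.0 CPM in WT and from 111.0 to 228.3 CPM in Het, with Het1 and Het2 above all WT libraries and Het3 below WT2. Markers of the labelled tissue were present in all libraries, with summed neural tube markers at 691.4 to 874.4 CPM and neural crest markers at 659.1 to 844.1 CPM. Cardiac markers, of another tissue, summed to 19.9 to 139.3 CPM in WT and 60.6 to 279.9 CPM in Het.

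The stretches near transcription starts that came closest to the p53 element are shown first, whether or not they matched it. They are shown because Mdm2 and Ppm1d are known both as controllers and as targets of p53. Binding was not measured. The p53 consensus element is self-complementary, so 1 search covers both strands, and it was taken as 20 bases made of 2 adjoining sites of 10 bases. A match was called at 3 mismatches or fewer. Windows of 300 bases, from 250 before to 50 after each annotated start, came from RefSeq on GRCm38, and the coordinates below are of that build. They covered 7 of the 8 members in 10 windows. Capitals mark the best 20 bases, with 5 bases on either side, and each is written 5′ to 3′ on the strand of its gene.
Mdm2, internal start, upstream element: gggctGGTCAAGTTGGGACACGTCCggcgt
Mdm2, internal start, downstream element: ggaggAGCTAAGTCCTGACATGTCTccagc
Mdm2, main start: gatagGAACTTGCCTAGCGACCATTgcggt
Trp73: tctccGGGCAAGCTGAGGCCTGCCCtgagt
Trp53: cggaaGGACTTGCCCTTACTTGTTAtggcg
Mdm4: aagcaAGGTATGCTGTGGCAAGCCTtaaat
Ppm1d: aaggaGGGCGGGGGCGAGCTTGCTCttctt
Usp7: atcgcGAGCAAGTACGTGCGCGTCTccctg
Cdkn1a, for reference: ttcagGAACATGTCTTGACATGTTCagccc
The pair from Mdm2 lay at chr10:117710100-117710129 and chr10:117710062-117710091, inside a first exon of 347 bases that begins 466 bases within the gene, and each had 3 mismatches. Mdm2 is known to have a p53-responsive promoter in its first intron. The best site by the main start of Mdm2, at chr10:117710920-117710949, had 5 mismatches and was no match. Trp53 at chr11:69580279-69580308 and an Mdm4 window at chr1:133025621-133025650 matched with 3 mismatches each, while Ppm1d at chr11:85311107-85311136 and Usp7 at chr16:8738473-8738502 had 4 and did not match. In all, 3 of the 10 member windows held a match. The remaining one was in Trp73 at chr4:154097215-154097244, which had 2 mismatches, the fewest of any member. The Trp73 and Mdm4 stretches printed above lie at annotated starts inside these genes. At the outer starts of both genes the best sites had 6 mismatches each and did not match (chr4:154139930-154139959 and chr1:133030791-133030820). Of all 32851 start windows, 6.29% held a match at this setting. The site of Cdkn1a at chr17:29090923-29090952, the classical p53 target, had 1 mismatch, which 0.0883% of all windows reached. Counts per gene sum transcripts from both Mdm2 starts.

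Levels were compared between members per kilobase of union exon (RPKM). Usp7, the deubiquitinase that stabilizes p53 and Mdm proteins, was the most abundant at a mean of 49.9 RPKM over the 6 libraries (range 48.9 to 50.9). Trp53 followed at 38.2 RPKM (34.3 to 40.7), higher than 91.5% of the 14984 tested genes with a length. The ranges of Usp7 and Trp53 did not overlap.
Ppm1d, the phosphatase also called Wip1 that reverses stress-induced phosphorylation of p53, stood at 12.4 RPKM (11.9 to 13.1) and Mdm2 at 12.1 RPKM (10.5 to 13.5), and these neighbours did not differ beyond their spread. Mdm4 stood at 6.58 RPKM (6.34 to 6.94). The middle of this order depended on the length used. The annotated exons of Mdm4 add up to 14.798 kb and its longest CCDS transcript to 7.105 kb, those of Mdm2 to 5.083 and 3.145 kb, and those of Ppm1d to 3.173 and 2.899 kb. With the CCDS length instead (chosen after seeing the data), Mdm2 at 19.6 lay above Mdm4 at 13.7 and Ppm1d at 13.6, which overlapped each other. The remaining members were far lower. Trp63 stood at 0.613 RPKM (0.507 to 0.834), Cdkn2a at 0.0668 and Trp73 at 0.00652. Usp7 and Trp53 led and Trp63, Cdkn2a and Trp73 closed the order under either length.

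**Figure D1:**
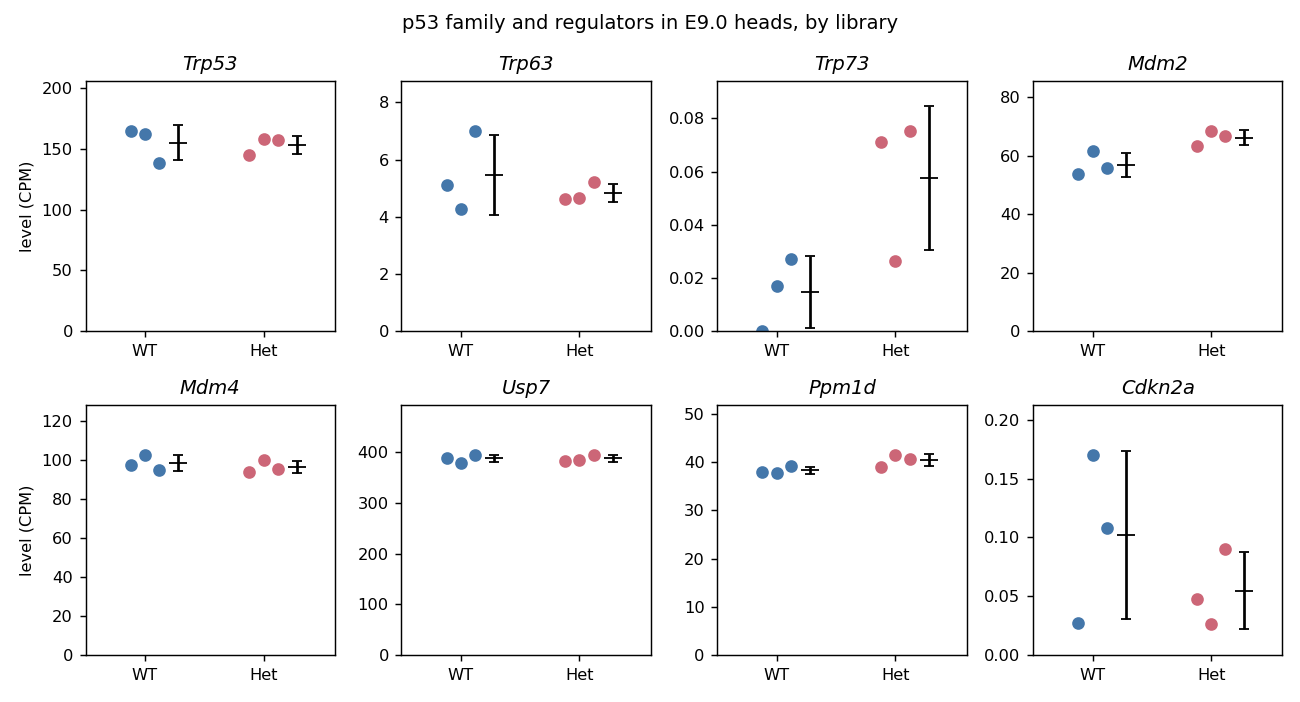
Level of each member in CPM (vertical axis from 0, its own scale in each panel) in the 3 WT (blue) and 3 Het (red) libraries, with the mean and SD as black bars. The groups separate for Mdm2 alone, at 53.6 to 61.5 CPM in WT and 63.4 to 68.4 CPM in Het; Trp73 and Cdkn2a rest on 10 counts or fewer in each library.

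Mdm2 (ENSMUSG00000020184.15, chr10:117688875-117710758, minus strand) was the member with the lowest p. It measured 53.6, 61.5 and 55.6 CPM in WT and 63.4, 68.4 and 66.7 CPM in Het, from 1952 to 5199 counts a library. Every Het library lay above every WT library, with means of 56.9 ± 4.11 CPM in WT and 66.2 ± 2.51 CPM in Het (SD, n = 3 each).
The log2 fold change was 0.22 (SE 0.060, 95% interval 0.08 to 0.35), a fold of 1.16 with an interval of 1.06 to 1.28. Across all genes tested this did not pass the threshold, with an edgeR unadjusted p of 0.00599 and an adjusted p of 0.433, or 0.188 with DESeq2. An unadjusted p under 0.05 with a higher Het value was found for 4.34% of all tested genes, and groups that did not overlap, in either direction, for 15.2%. Leaving out 1 library at a time kept the log2 fold change between 0.17 (without WT1) and 0.28 (without WT2), with the unadjusted p under 0.05 in each. With the Y-linked level as a covariate it was 0.16, and the unadjusted p rose to 0.104.

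**Figure D2:**
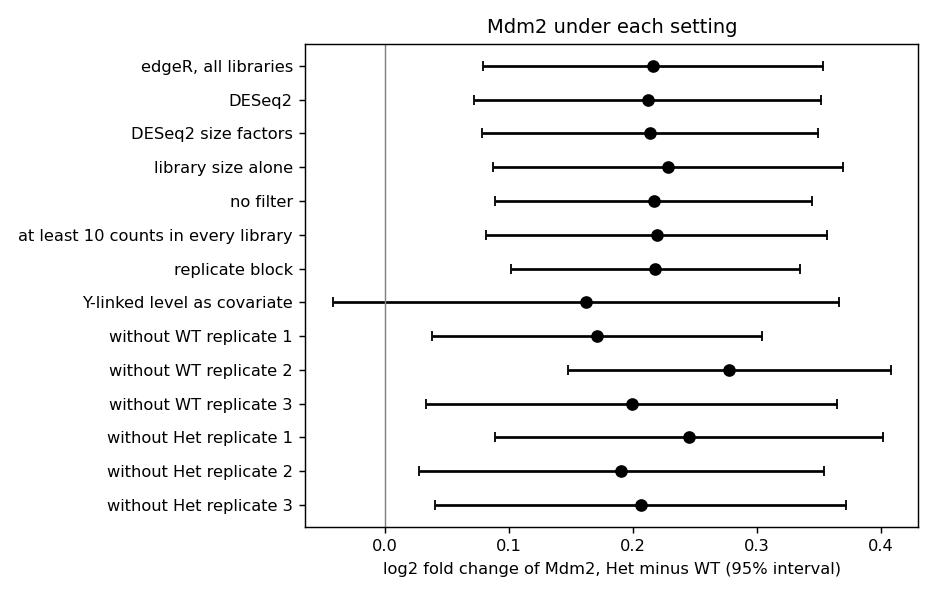
Log2 fold change of Mdm2 (horizontal axis, Het minus WT, points) with its 95% interval (bars) under edgeR with all libraries, each other setting, and each library left out. The values lie from 0.16 to 0.28, and the interval crosses 0 only with the Y-linked level as a covariate.

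Trp53 itself (ENSMUSG00000059552.13, chr11:69580359-69591873, plus strand) measured 164.7, 162.2 and 138.8 CPM in WT and 145.0, 158.0 and 157.7 CPM in Het. The groups overlapped fully, with WT3 lowest and WT1 highest. The means were 155.2 ± 14.3 and 153.6 ± 7.44 CPM (SD, n = 3 each), and the log2 fold change was -0.02 (SE 0.069; edgeR adjusted p = 0.968). The interval on the fold ran from 0.887 to 1.10, so a change in Trp53 mRNA beyond about this size in either direction lay outside the interval. Wrap53, whose gene lies head to head with Trp53 on the other strand without overlapping it, had a log2 fold change of -0.07 (edgeR adjusted p = 0.727).

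Mdm4 (ENSMUSG00000054387.13, chr1:132959484-133030561, minus strand) measured 97.5, 102.7 and 94.7 CPM in WT and 93.8, 99.9 and 95.6 CPM in Het. The groups overlapped, at means of 98.3 ± 4.08 and 96.4 ± 3.11 CPM (SD, n = 3 each). The log2 fold change was -0.03 (SE 0.046, 95% interval -0.13 to 0.08; edgeR adjusted p = 0.893).
Ratios within a library do not depend on the scaling between libraries. They set Mdm2 RNA against the RNA of the protein it controls and of its partner Mdm4. The log2 ratio of Mdm2 to Trp53 counts was -1.62, -1.40 and -1.32 in WT and -1.19, -1.21 and -1.24 in Het. The log2 ratio of Mdm2 to Mdm4 counts was -0.86, -0.74 and -0.77 in WT and -0.56, -0.55 and -0.52 in Het. Both ratios were higher in every Het library than in any WT library, and Het libraries were the tighter group in each. The ratios share the Mdm2 counts, and Trp53 and Mdm4 differed little between the groups. They therefore largely repeat the difference in Mdm2 and are not independent results. The share of other gene pairs whose ratio separates the groups was not computed. The differences of means were 0.23 for Mdm2 to Trp53 and 0.25 for Mdm2 to Mdm4, each with an exact permutation p of 0.1 (two-sided), the smallest that 3 against 3 libraries allows. Without WT1 the difference for Mdm2 to Trp53 was 0.14, and with any 1 library left out it lay between 0.14 and 0.29.

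**Figure D3:**
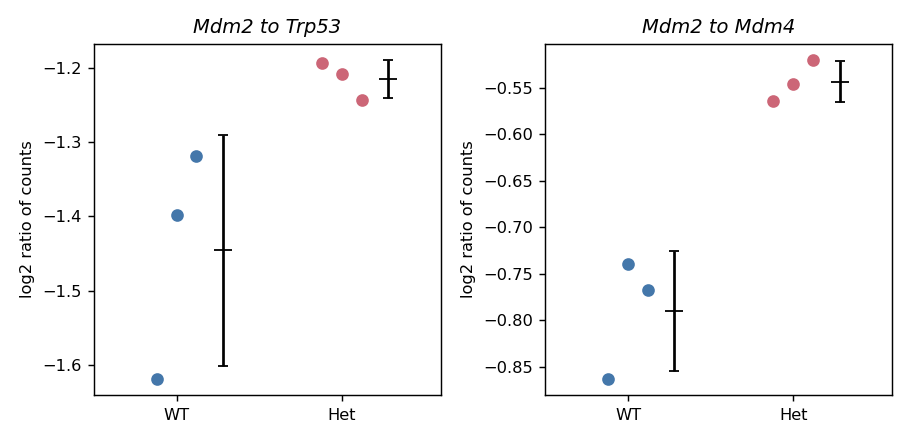
Log2 ratio of Mdm2 counts to Trp53 counts (left) and to Mdm4 counts (right) in the 3 WT (blue) and 3 Het (red) libraries, with the mean and SD as black bars; the axes do not start at 0. The Het libraries lie above all WT libraries in both panels, and WT1 has the lowest value in each.

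Usp7 (ENSMUSG00000022710.17, chr16:8689595-8792308, minus strand) measured 389.1, 379.8 and 394.6 CPM in WT and 383.2, 385.4 and 395.1 CPM in Het. The means of 387.8 ± 7.50 and 387.9 ± 6.37 CPM (SD, n = 3 each) differed by less than their SD, and the 95% interval on the log2 fold change was -0.08 to 0.08 (edgeR adjusted p = 0.999). Ppm1d (ENSMUSG00000020525.17, chr11:85311244-85347066, plus strand) measured 38.0, 37.8 and 39.1 CPM in WT and 39.1, 41.6 and 40.6 CPM in Het. The highest WT library lay just above the lowest Het library, so the groups overlapped narrowly. The log2 fold change of 0.08 (SE 0.048, 95% interval -0.03 to 0.19) did not pass the test (edgeR unadjusted p = 0.141, adjusted p = 0.690).

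Trp63 (ENSMUSG00000022510.14, chr16:25683763-25892102, plus strand), the paralogue that maintains stratified epithelia, measured 5.11, 4.26 and 7.0 CPM in WT and 4.64, 4.66 and 5.20 CPM in Het, from 186 to 354 counts a library. WT3 was the highest and WT2 the lowest, and all 3 Het libraries fell between them. The log2 fold change was -0.16 (SE 0.175, 95% interval -0.56 to 0.23; edgeR adjusted p = 0.839), and without WT3 it was 0.05. Trp63 was read beside the surface ectoderm markers. Of these, 0 of 16 tested had an edgeR unadjusted p under 0.05, beside 8.43% of all tested genes. That count is near the background. Krt8 ranged from 95.8 to 140.9 CPM and Epcam from 45.2 to 71.6 CPM, while Krt5, Krt14 and Krt17, keratins of stratified epidermis, stayed under 1 CPM in all libraries.

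Trp73 (ENSMUSG00000029026.16, chr4:154056253-154140208, minus strand), which acts in neurons and multiciliated cells, had 0, 1 and 1 counts in WT and 3, 2 and 5 in Het. Pooled, these were 2 counts against 10, a ratio of 3.58 with an exact Poisson interval of 0.762 to 33.6 that covers counting error only. Cdkn2a (ENSMUSG00000044303.6, chr4:89274471-89294653, minus strand), whose locus encodes both the Mdm2 inhibitor Arf and the Cdk inhibitor p16, had 1, 10 and 4 counts in WT and 2, 2 and 6 in Het. Pooled, 15 counts against 10 gave a ratio of 0.477 after scaling to depth (0.192 to 1.13). Neither gene passed the filter of the main edgeR fit. With DESeq2 the unadjusted p was 0.251 for Trp73 and 0.398 for Cdkn2a, without an adjusted p for either. No difference was detected at this depth. The neighbour of Cdkn2a, the Cdk inhibitor Cdkn2b, was as scarce, with 3, 6 and 3 counts in WT and 2, 16 and 5 in Het.

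**Figure D4:**
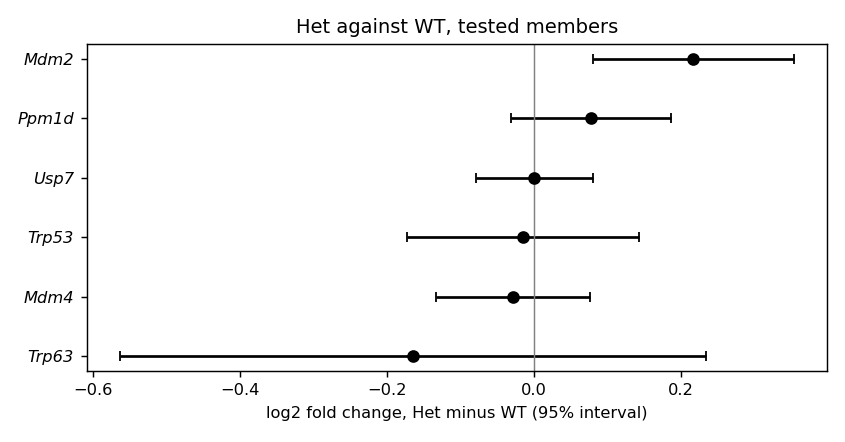
Log2 fold change (horizontal axis, Het minus WT, points) with the 95% interval (bars) of the 6 tested members. The interval of Mdm2, 0.08 to 0.35, lies above 0; those of the other 5 members cross it, and that of Trp63 is the widest.

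In all, 0 of the 6 tested members passed an edgeR adjusted p of 0.05, and 0 with DESeq2. At an unadjusted p under 0.05 the count was 1 of 6 (Mdm2). Over all tested genes 0.00642% passed the edgeR adjusted threshold (1 gene, A3galt2, named after its value was seen), 0.651% of those DESeq2 gave an adjusted p passed with DESeq2, and 8.43% had an edgeR unadjusted p under 0.05. With 1 call in the whole comparison, a count of 0 among 6 members is near the background.

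The wider set of genes that act on p53 was close to the background. In 8 lists of regulators, 150 of 153 genes were tested, and 6 had an edgeR unadjusted p under 0.05 with a higher Het value and 9 with a lower one. That is 15 of 150, beside 8.43% of all genes, and the median log2 fold change was -0.005, beside 0.0004 for all genes.
Of 19 ubiquitin ligases and cofactors, Arih2 was at 94.6 and 103.7 CPM in WT and Het (log2 0.13) and Ddb1, the adaptor of Cul4 ligases, at 1454 and 1334 CPM (log2 -0.12). Of 14 deubiquitinases, Usp2, which acts on Mdm2, was at 3.12 and 4.38 CPM (log2 0.49) and Usp11 at 51.7 and 45.6 CPM (log2 -0.18). Each of these 4 genes passed the unadjusted test only.
Of 21 kinases, 1 was higher and 2 lower by the unadjusted test. The higher one was Chek2 (log2 0.15), and the lower ones were Atm (log2 -0.29) and Atr. Atr, a kinase of the replication stress response, was at 125.7 CPM in WT and 112.7 CPM in Het (log2 -0.16). Of 20 acetylation and methylation enzymes, Kat5 had a log2 fold change of 0.12 and Ehmt1 of -0.08. Of 10 phosphatases, 0 passed the unadjusted edgeR test or DESeq2, and 9 had a log2 fold change above 0, as had 50.2% of all tested genes, with a median of 0.03.

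Among 25 binding partners 2 were lower and 0 higher by the unadjusted test. E2f1, the cell cycle transcription factor that also induces Arf, was at 28.8 ± 1.73 CPM in WT and 21.6 ± 0.47 CPM in Het (SD, n = 3 each), a log2 fold change of -0.42 (SE 0.060; edgeR adjusted p = 0.182, DESeq2 adjusted p = 6.65e-05). It was the only gene of the 8 lists past the DESeq2 threshold, and its 3 Het libraries lay below all WT libraries. E2f1 (chr2:154559407-154569892) lies on the same chromosome as Snrpb (chr2:130171414-130179403). The part of this shared chromosome in the difference was not tested.
Ribosomal and nucleolar proteins reported to bind Mdm2 or Arf had 17 of 22 log2 fold changes above 0, beside 50.2% of all genes. Their median was 0.05. Rps27l, a p53 target that binds Mdm2 and a near copy of Rps27 with which it may share reads, was at 139.0 and 150.7 CPM (log2 0.12) and Gnl3l at 140.5 and 126.9 CPM (log2 -0.15). Of 20 genes of Polycomb complexes and other regulators of the Cdkn2a locus, 1 was higher and 1 lower by the unadjusted test, the lower one being the X-linked demethylase Kdm6a (log2 -0.25). Usp11 and Gnl3l, named above, and the p53 target Eda2r, named below, are also X-linked. The part of the Y-linked difference in X-linked genes was not tested.

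Lists of genes downstream of p53 were set beside its regulators. These lists were chosen with earlier results of these data known, so their direction is not independent evidence. Of 31 p53 target genes, 14 were higher and 0 lower by the edgeR unadjusted test, 25 had a log2 fold change above 0, and the median was 0.23. Of all tested genes, 4.34% were higher by that test and 50.2% had a log2 fold change above 0. DESeq2 called 9 of them, all higher, beside 0.651% of all genes in either direction, and edgeR called 0 after adjustment. Cdkn1a, the Cdk inhibitor p21, was at 1.47 ± 0.64 CPM in WT and 7.16 ± 1.58 CPM in Het, a log2 fold change of 2.32 (SE 0.305; edgeR adjusted p = 0.182, DESeq2 adjusted p = 4.68e-14).
Eda2r, a death-domain receptor, was at 6.19 ± 1.39 and 25.1 ± 5.27 CPM, and Phlda3, an inhibitor of Akt, at 3.49 ± 0.63 and 10.3 ± 1.81 CPM (SD, n = 3 each). In both, all Het libraries lay above all WT libraries. The median of the list lay between 0.19 and 0.28 with any 1 library left out and was 0.12 with the Y-linked level as a covariate. The log2 fold change of Mdm2, 0.22, lay near this list's median and below those of Cdkn1a, Eda2r and Phlda3.
Targets that act back on p53 or Mdm2 form a shorter list that shares genes with the first. Of 15 tested, 5 were higher and 0 lower by the edgeR unadjusted test, 5 passed DESeq2, all higher, and the median was 0.05, beside the shares of all genes given above. That median was 0.022 without WT1, 0.030 without Het2 and 0.088 without WT2. They included Ccng1, which brings a phosphatase to Mdm2, at 48.1 ± 8.07 and 100.6 ± 16.8 CPM, Trp53inp1, which promotes p53 phosphorylation, at 27.2 ± 2.21 and 45.2 ± 9.59 CPM, and the kinase Dapk1 at 59.7 ± 1.23 and 71.2 ± 3.54 CPM.

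**Figure D5:**
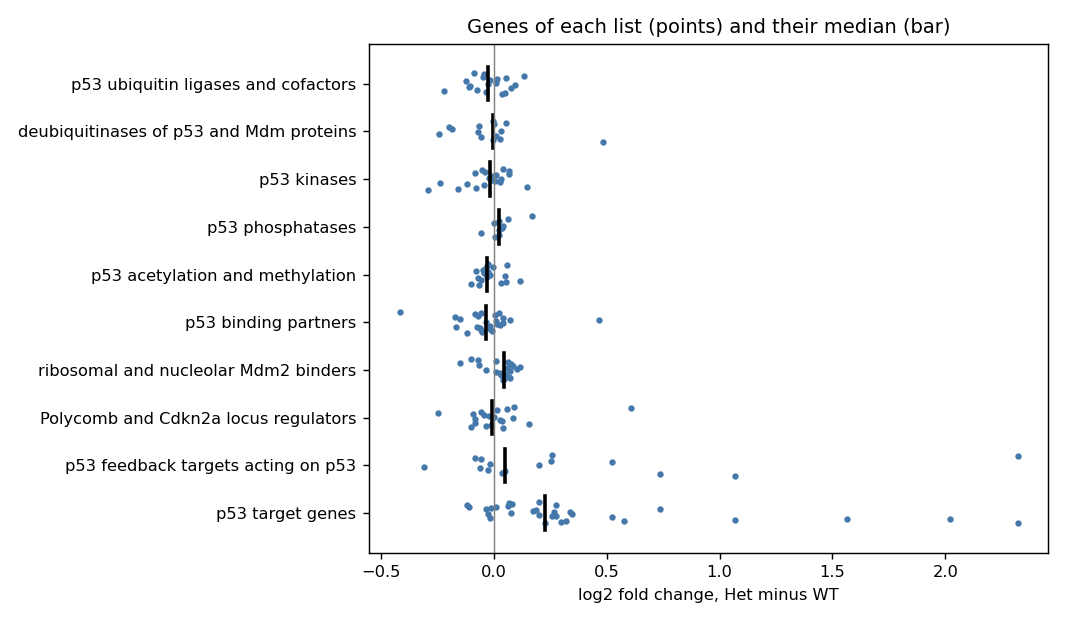
Log2 fold change (horizontal axis, Het minus WT) of each tested gene (points) and the median (black bar) of 8 regulator lists and 2 lists of p53 targets, which share genes. The regulator lists centre near 0 and the p53 target genes on 0.23.

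The genes whose pattern over the 6 libraries was most like each member were sought among 13138 tested genes of at least 1 CPM, by the root mean square difference of mean-centred log2 CPM. For Trp53 these were Apba2 (0.021), Il12rb2 (0.023) and Top1mt (0.029). For Mdm2 they were Tpd52l1 (0.0071), Ccnl1 (0.018) and Cd9 (0.023). For Trp63 they were Rnf150 (0.054), Slc7a4 (0.068) and Invs (0.078). Over 6 libraries such likeness is a description of these libraries.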

How the data were processed

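Total RNA of 6 head pools was sequenced, and the authors deposited raw counts per gene. The submitters' notes name Trim Galore, STAR, featureCounts and mm10, while the study's methods name CutAdapt, STAR, HTSeq and a Gencode annotation; which counter made the file, and its strand setting, are not given in the sources used here. Counts were tested in edgeR 4.0.16 (TMM scaling, filterByExpr by genotype, robust quasi-likelihood test, Benjamini-Hochberg adjustment over 15584 genes, threshold 0.05), with all 6 libraries and no covariate. The filter left out 8837 genes. CPM used TMM library sizes. The SE is the absolute log2 fold change over the square root of F, and 95% intervals use the fit's degrees of freedom. DESeq2 1.42.0 was an alternative, as were other scalings and filters, a replicate block, a covariate of 4 Y-linked genes (Ddx3y, Eif2s3y, Kdm5d, Uty) and leaving out each library. Ratios of members were tested by exact permutation. Coordinates and exon lengths came from Gencode M21 on GRCm38, start windows from RefSeq on the same build. The annotation has 6 genes that overlap a member, and 0 of them had a row in the counts. Libraries of 1 group come from separate pools, and p-values measure the spread between pools. The edgeR fit was tested on simulated counts, and the other steps were not.

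The members and lists were chosen with earlier results of these data known. Genes named were the members and Snrpb, up to 4 genes of each list with the smallest p among those with an unadjusted p under 0.05 and groups that did not overlap, and the nearest 3 genes in pattern. Outside this rule, Wrap53 and Cdkn2b were named as neighbours of members, and Atm, Chek2, Krt8, Epcam and A3galt2 after their values were seen. Krt5, Krt14 and Krt17 are markers of the surface ectoderm list. Depth of 186 counts or more in the tested members put the counting error per library at 7.33% or less. Poisson intervals cover counting error only. The mutants are numbered 1 to 3 in the titles, which gave the replicate numbers used here, and otherwise in the descriptions.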

Additional observations from a re-analysis of the deposited data

How the results depend on the processing

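The count of members past the threshold stayed at 0 in all 13 alternatives. The number of genes past the adjusted threshold, 1 with edgeR, was 84 with DESeq2, 11 with no filter and 0 with the Y-linked covariate, and ranged from 0 to 6 when 1 library was left out. Trp63 changed sign, from -0.16 to 0.22, with the Y-linked covariate. Usp7, near 0, was -0.0037 with DESeq2 and -0.0021 with its size factors. Without 1 library, log2 fold changes ranged from -0.090 to 0.025 for Trp53, -0.32 to 0.052 for Trp63, -0.055 to 0.0056 for Mdm4 and -0.018 to 0.013 for Usp7. With the Y-linked covariate the median of the feedback targets was -0.00047 and that of the p53 target genes 0.12; the cause was not tested. Mean levels with CCDS transcript lengths (an alternative chosen after seeing the data) were 82.7 for Trp53, 0.959 for Trp63, 19.6 for Mdm2, 13.7 for Mdm4, 96.9 for Usp7 and 13.6 for Ppm1d, in RPKM, since shorter lengths raise them. Same-numbered libraries had correlated deviations of 0.169, 0.0317 and 0.360, and differently numbered ones ran from -0.245 to 0.0875. These values do not settle whether the numbers pair the libraries. With the replicate block Mdm2 had a log2 fold change of 0.22 (edgeR unadjusted p = 0.00257, adjusted p = 0.304). Trp73 and Cdkn2a were too scarce for the main edgeR test at this depth.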
